A study of Mus musculus with 28 samples.

Results

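The clustered histone genes encode the core and linker histones that a cell makes in bulk when it copies its DNA. Of the 45513 gene rows in the count table, 63 carry a name of this family (Hist1 to Hist4, followed by the histone class), and the 58 with at least 10 counts in 14 or more of the 28 libraries are described here. The other 5 (Hist1h1t, Hist1h2ba, Hist2h2ab, Hist3h2ba and Hist3h2bb-ps) fell below that level. All 58 passed the filter on low counts, so none is missing from the tests. They comprise 5 linker histone H1 genes, 15 H2A, 15 H2B, 10 H3 and 13 H4 genes. In the mouse build GRCm38, 52 of them lie on chromosome 13 (the Hist1 group), 4 on chromosome 3 (Hist2), 1 on chromosome 11 (Hist3h2a) and 1 on chromosome 6 (Hist4h4). Hist1h2aj is annotated as a pseudogene.

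H2A, H2B, H3 and H4 form the protein core around which DNA is wound, and H1 binds the linker DNA between cores. Most messenger RNAs of these genes have no intron and end in a conserved stem-loop instead of a poly(A) tail. The stem-loop is bound by the protein SLBP and cut with the help of the U7 small nuclear RNA, and the messages are made in S phase and degraded when DNA synthesis stops. Some of the genes also give transcripts that run past the stem-loop and are polyadenylated, a form described in cells that no longer divide. Most cells of the adult heart muscle are not dividing. Mki67, a gene expressed in cycling cells, and 7SL, the RNA of the signal recognition particle, which like the histone messages carries no poly(A) tail of the usual kind, were therefore used as measures to compare with.

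The libraries are from ventricular myocardium of male C57BL/6 mice, perfused with saline before collection, with 1 library per mouse. At 6 weeks of age the mice had a 5/6 nephrectomy, which removes most kidney tissue and causes chronic kidney disease (CKD), or a sham operation. All groups, the sham-vehicle controls included, were fed 1% hydroxyproline, an oxalate precursor, and 0.5% calcium, and on day 7 they were gavaged with 1 dose of the oxalate-degrading gut bacterium Oxalobacter formigenes (Oxf) or with culture medium (vehicle). The groups are sham-vehicle (n = 10), CKD-vehicle (n = 6), sham-Oxf (n = 5) and CKD-Oxf (n = 7). The design describes 10 mice a group; the other mice were not analysed here.

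The 3′ ends show what sets these messages apart. A 16-base stem-loop was found shortly after the coding end (21 to 54 bases) in annotated transcripts of 41 of the 58 genes, namely 3 H1, 9 H2A, 9 H2B, 8 H3 and 12 H4 genes. Another 12 genes have fewer than 20 annotated bases there, so the letters could not be read. The examples below are from genes the results turn on, each with 5 flanking bases on either side, read 5′ to 3′ from GENCODE M21 transcripts, with the stem-loop in capitals.
Hist1h1c: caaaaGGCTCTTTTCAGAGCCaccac
Hist2h2ac: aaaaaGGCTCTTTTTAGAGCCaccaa
Hist1h2bk: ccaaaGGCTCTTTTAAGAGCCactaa
Hist1h3c: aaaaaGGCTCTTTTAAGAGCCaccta
Hist2h3c2: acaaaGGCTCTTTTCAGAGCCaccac
Hist1h4h: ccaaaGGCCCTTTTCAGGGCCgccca
Hist2h4: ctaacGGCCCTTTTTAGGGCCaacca
Hist4h4: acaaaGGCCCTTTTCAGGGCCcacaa
There were 8 distinct stem-loops among the 41 genes. All 29 found in H1, H2A, H2B and H3 genes began with GGCTC, whereas none of the 12 in H4 genes did. The most common form, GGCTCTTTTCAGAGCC, was shared by 3 H1, 8 H2A, 7 H2B and 4 H3 genes, and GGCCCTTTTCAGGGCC by 7 H4 genes. The annotated transcript continued for 30 bases after the stem-loop in Hist1h2bk, 840 in Hist1h1c and 2445 in Hist4h4, so annotated ends differ widely among genes with the same element.

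Many H2A and H2B genes are arranged head to head, and 12 such pairs lie among the 58, with start sites 176 to 302 bases apart. Hist1h2bk and Hist1h2ah form one of them. The stretch before the RefSeq start of Hist1h2bk, which holds most of the DNA between the annotated starts of the pair, is shown at chr13:22035571-22035820 (+ strand, GRCm38.p6), with ATTTGCAT, CCAAT and TATAAA on either strand in capitals.
Hist1h2bk: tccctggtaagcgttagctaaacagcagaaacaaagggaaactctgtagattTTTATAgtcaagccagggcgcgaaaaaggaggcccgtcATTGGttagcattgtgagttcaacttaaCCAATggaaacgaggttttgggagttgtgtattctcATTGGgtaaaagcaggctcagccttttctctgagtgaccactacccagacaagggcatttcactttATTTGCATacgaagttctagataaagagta
The RefSeq promoter table, with 250 bases before to 50 after each start, matched 51 members with 52 sequences. The octamer ATTTGCAT, on either strand, was in 6 of 13 H2A and 5 of 14 H2B promoters and in none of the H1, H3 or H4 promoters, against 1.74% of all 32851 promoters of the table. CCAAT was in all H1, H2A, H2B and H3 promoters but in 3 of 12 H4 promoters, against 37.4% of all. TATAAA was in 57.7% of the member promoters and 13.6% of all. AAACACA was in 4 of 5 H1 promoters and 7.18% of all. These matches describe the letters only, and a head-to-head pair shares most of its sequence.

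A few genes made up much of the signal. Levels are counts per M mapped counts (CPM), with the libraries scaled by TMM factors. Averaged over the 28 libraries, Hist1h1c, a linker histone, had 40.1 CPM, Hist1h1e 15.7, Hist1h2bc 14.8, Hist1h4h 13.1, Hist1h4d 12.8 and Hist1h4c 9.68 CPM. Per kilobase of annotated exon, Hist1h4h was the highest at 27.9 CPM per kb and Hist1h1c followed at 25.7. The lowest mean was 0.517 CPM, in Hist1h2bm, a mean of 21.3 counts a library. By class, H4 genes gave 27.3% of the summed CPM, H1 24.6%, H2B 21.4%, H3 16.1% and H2A 10.6%.

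Reads of these genes are hard to assign. The median share of a gene's 50-base windows that occur in another histone row was 78.9% in H2A, 51.8% in H3, 49.7% in H2B, 39.5% in H4 and 2.2% in H1 genes. Counts of Hist1h2ao and Hist1h2ap, and of Hist1h2bq and Hist1h2br, were equal in the median library (difference 0%), and those of Hist1h3h and Hist1h3i differed by 4.02%. The counts of H2A, H2B, H3 and H4 genes are therefore uncertain as values of single genes. How reads matching several rows were counted is not given in the sources used here. Summed levels and class shares may therefore hold some reads more than once, to a degree that differs by class. All 15 H2A members overlap another annotated gene, Hist1h1e and Hist1h2be overlap each other, and Hist1h4b overlaps a further gene; use of strand is not given in the sources used here. Hist2h4, Hist2h2be and Hist4h4 share 1.01%, 0% and 0% of their windows with other histone rows.

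Some libraries stood apart. Depth ran from 19.8 M to 65.4 M counts. Sham-Oxf replicate 1 had 15879 genes with a count, against 27128 to 33995 in the others, and 17 of the 58 histone genes at 0, including 8 of the 10 H3 genes. The 7SL copies Rn7s1 and Rn7s2 took 1.83% to 20.98% of a library's counts. With vehicle their mean share was 13.6 ± 6.80% after nephrectomy (CKD) and 9.78 ± 5.24% after the sham operation, and with Oxf it was 8.81 ± 6.26% and 4.14 ± 3.52% (SD). Mki67 was at 28.3 CPM in sham-Oxf replicate 2 and 28.5 CPM in CKD-Oxf replicate 6, against 3.17 to 14.3 CPM in the other 26 libraries. The same 2 libraries had the highest summed lymphoid markers (Cd79a, Ms4a1 and Cd3e), 44.0 and 29.5 CPM against 0 to 16.3 CPM. Erythroid and marrow precursor markers (Klf1, Mpo and Elane) were under 1 CPM in sum in every library. They were at 0.203 and 0.456 CPM in these 2, against 0 to 0.300 CPM in the others (median 0.163). The sum in CKD-Oxf replicate 6 was the highest of the 28 libraries. Most of it was Klf1 (0.394 CPM, also the highest), with Mpo at 0 and Elane at 0.062 CPM. Elane was higher in sham-vehicle replicate 10, at 0.133 CPM. Sham-Oxf replicate 2 and CKD-Oxf replicate 6 also had the lowest summed endothelial markers (Pecam1, Cdh5 and Kdr). These were at 411 and 398 CPM, against 443 to 919 CPM in the others. Erythroid markers there were at 5.76 and 19.3 CPM, against 6.18 to 127 CPM. Macrophage markers, at 35.5 and 44.0 CPM, lay within the range of the others. Cardiomyocyte markers (Myh6, Myl2, Tnnt2, Actc1 and Ryr2) were high in every library, at 16307 to 40943 CPM in sum. In these 2 libraries they were at 18375 and 22428 CPM.

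No histone class separated the 4 groups. The 58 genes summed to 288 ± 91.5 CPM (SD, n = 6) in the CKD-vehicle mice and 252 ± 54.9 (n = 10) in their sham-vehicle controls. The CKD-Oxf libraries averaged 251 ± 74.6 (n = 7), and those of sham-Oxf 228 ± 80.2 (n = 5). The lowest and highest libraries were 187 and 396 CPM for CKD-vehicle, 197 and 356 for sham-vehicle, 182 and 410 for CKD-Oxf, and 141 and 328 for sham-Oxf, so all groups overlapped. The order of these means depended on the scaling. As an unscaled share of all counts, the members averaged 0.0254% in CKD-vehicle and 0.0248% in sham-vehicle. The share was 0.0251% in CKD-Oxf and 0.0261%, the highest, in sham-Oxf. The class means that follow are TMM-scaled as well. H1 genes had the highest means in the CKD groups, at 71.8 ± 28.6 CPM in CKD-vehicle and 74.8 ± 32.6 in CKD-Oxf, against 54.9 ± 12.7 in sham-vehicle and 50.5 ± 17.8 in sham-Oxf. H4 genes had the highest mean in CKD-vehicle (85.7 ± 29.7 CPM) and the lowest in sham-Oxf (54.7 ± 16.5). H3 genes had nearly equal means, from 40.0 to 42.8 CPM, but in sham-Oxf they ran from 7.59 CPM in replicate 1 to 99.8 CPM in replicate 2. In tissue of this kind, fewer cells of a type and less RNA per cell cannot be told apart.

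**Figure D1:**
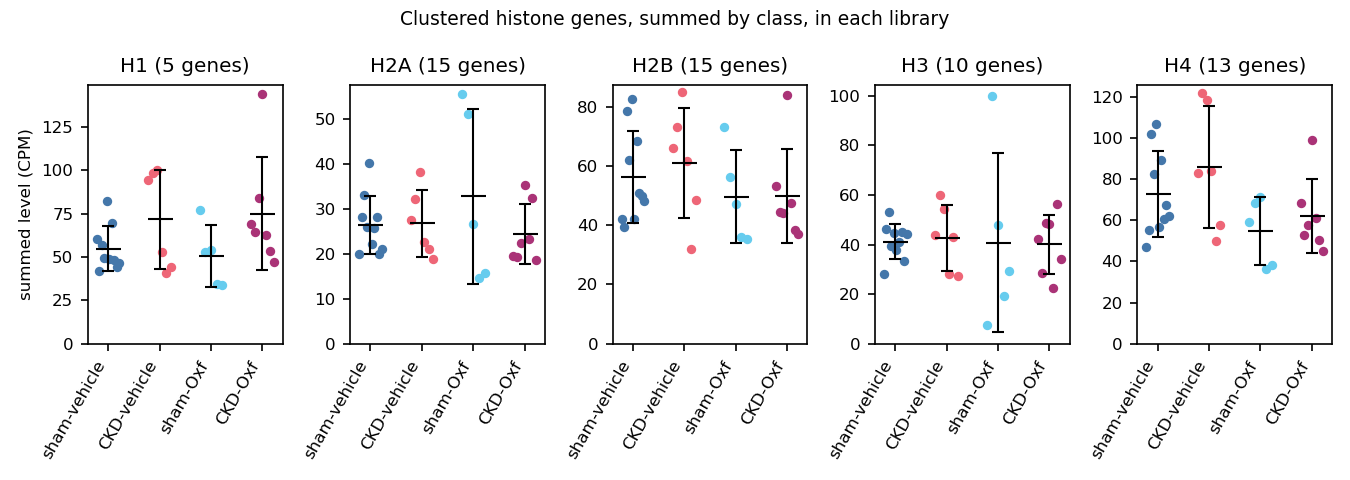
Summed level in CPM of the genes of each histone class (vertical axes, each from 0) in every library of the 4 groups (horizontal axis). Points are libraries, and the black line with bars is the mean ± SD. The groups overlap in all 5 classes, and the H3 values of sham-Oxf spread from 7.59 to 99.8 CPM.

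Surgery was tested first. Between CKD-vehicle and sham-vehicle, 0 of the 58 genes passed an adjusted p of 0.05 (edgeR quasi-likelihood test, adjusted over 24273 genes). Without adjustment 0 reached 0.05, against 4.46% of all genes; DESeq2 and limma voom called 0 as well. Among all genes tested, 0.00824% were called. The smallest p was that of Hist4h4, an H4 gene outside the large clusters, at 1.24 to 3.95 CPM (median 2.55) in CKD-vehicle and 0.937 to 2.96 CPM (median 1.46) in sham-vehicle. The ranges overlapped, and the log2 fold change was 0.57 ± 0.29 (SE; edgeR adjusted p = 0.955), and 0.36 without CKD-vehicle replicate 3. Class medians were 0.36 for H1, 0.32 for H4, 0.11 for H2B, 0.04 for H3 and −0.13 for H2A, against −0.03 for all genes; with total counts those of H2B and H3 were −0.04 and −0.10, and that of all genes −0.16.

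Averaged over gavage, CKD against sham called 0 members by edgeR, DESeq2 or limma voom, with 9 at an unadjusted p under 0.05 (15.5% of the 58, against 10.6% of all genes; 0.0% of all genes were called). Hist1h1c had the smallest p. It ran from 26 to 66.03 CPM in CKD-vehicle (median 46.3) and from 32.0 to 94.1 in CKD-Oxf (median 42.5), against 26.3 to 54.8 in sham-vehicle (median 32.1) and 42.8, 28.1, 36.6, 23.3 and 23.0 CPM in the 5 sham-Oxf libraries. The CKD medians were the higher ones, with overlap in every pair. The log2 difference was 0.52 ± 0.17 (SE; edgeR adjusted p = 0.309), and 0.38 without CKD-Oxf replicate 4, the library at 94.1 CPM. CKD-Oxf against sham-Oxf and the interaction of surgery with gavage also called 0 members (edgeR, DESeq2 and limma voom), when 0.0% of all genes were called in either. At an unadjusted p under 0.05 there were 10 members (17.2%, against 8.23% of all genes) and 1 member (1.72%, against 3.55%). Both had Hist2h2be, an H2B gene with a long annotated transcript, at the smallest p. Its values in sham-Oxf were 5.50, 3.04, 2.96, 2.19 and 2.71 CPM, against 1.74 to 2.70 CPM in CKD-Oxf (median 2.15). The difference of −0.56 ± 0.19 (edgeR adjusted p = 0.362) was −0.30 without sham-Oxf replicate 1, and the interaction of −0.72 ± 0.25 (adjusted p = 1.0) was −0.46 without it.

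The effect of the bacterium was the next comparison, and Hist2h4 was the only member that passed. Averaged over surgery, 1 of 58 genes was lower in the Oxf groups (edgeR), when 2.81% of all genes were called (1.54% lower, 1.26% higher), so the share of members, 1.72%, was near the background. Hist2h4, an H4 gene on chromosome 3 (96261682 to 96263311, minus strand), had 2.65 to 6.44 CPM in sham-vehicle (median 4.21) and 2.55 to 6.90 in CKD-vehicle (median 4.96). In sham-Oxf it had 2.85, 3.15, 4.03, 2.08 and 1.9 CPM, and the CKD-Oxf libraries had 2.16 to 4.55 CPM (median 3.11). Both Oxf medians lay below both vehicle medians, with overlap. The log2 difference was −0.62 ± 0.17 (SE; edgeR adjusted p = 0.0453). With 1 library left out at a time it passed in 9 of 28 fits (−0.71 to −0.56).

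The call on Hist2h4 moved with other measures. With the 7SL share as a covariate its difference was −0.31 (adjusted p = 0.311), and with a score of clock genes −0.26 (adjusted p = 0.892); 7 of 10 clock genes of one phase and 4 of 5 of the opposite phase were themselves called between Oxf and vehicle. With either of these covariates, or with Mki67 (−0.53, adjusted p = 0.135), it no longer passed. Which of them bears on the difference was not tested. Hist4h4 had a similar estimate (−0.70 ± 0.23) that missed the threshold (adjusted p = 0.0759). All 13 H4 genes had negative estimates here, from −0.70 to −0.02 (median −0.43), as did 13 of 15 H2B genes (median −0.09), whereas 12 of 15 H2A genes were positive (median 0.18). With total counts the H2B median was 0.06, when the median of all genes was 0.16. In all, 14 members had an unadjusted p under 0.05, or 24.1% against 23.0% of all genes.

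Within each surgery, 0 members passed by edgeR or DESeq2, when 0.033% of all genes were called after nephrectomy and 0.0% after the sham operation. In CKD-Oxf against CKD-vehicle, 7 had an unadjusted p under 0.05 (12.1%, against 13.1% of all genes), all but 1 of them H4 genes. Limma voom called 7, or 12.1%, when it called 15.0% of all genes. The smallest edgeR p was again that of Hist2h4 (−0.64 ± 0.24, adjusted p = 0.284), and the H4 median was −0.56. In sham-Oxf against sham-vehicle, 11 had an unadjusted p under 0.05 (19.0%, against 12.6%), and limma voom called 0. Hist1h2ak had the smallest p. Its sham-Oxf values were 2.89, 2.12, 0.806, 0.378 and 0.599 CPM, against 0.373 to 1.21 in sham-vehicle (median 0.633). Only replicates 1 and 2 lay above the sham-vehicle range, and the difference of 0.99 ± 0.38 (edgeR adjusted p = 0.287) was 0.54 without replicate 1. The H2A median of this contrast, 0.51, was likewise 0.12 without that library.

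**Figure D2:**
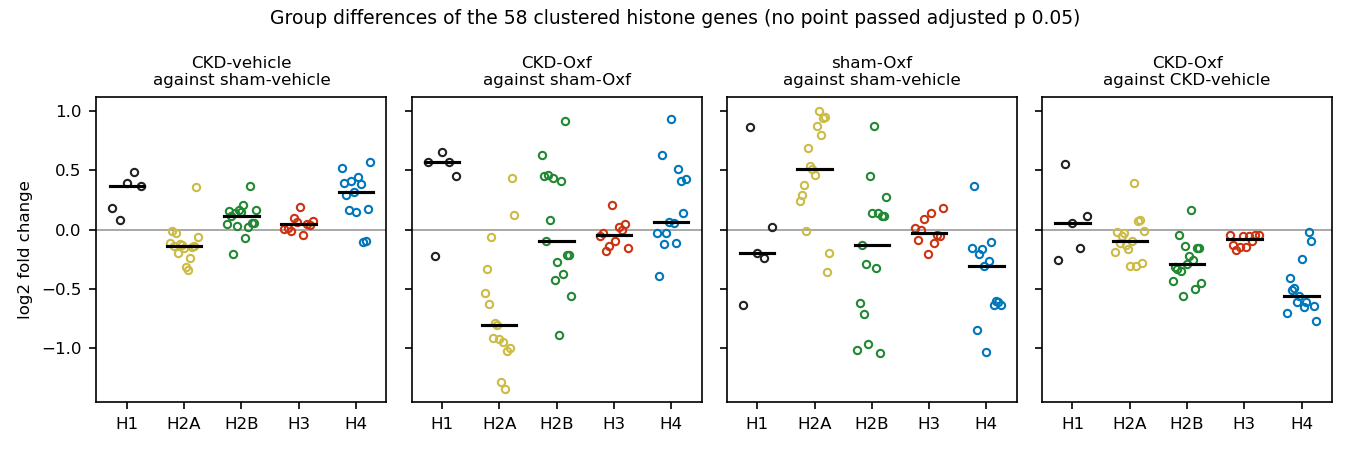
Log2 fold changes (vertical axis) of the 58 genes in the 4 contrasts that change surgery or gavage alone, by class (horizontal axis). Each circle is a gene, and the black bar is the class median. H4 genes lie mostly below 0 in CKD-Oxf against CKD-vehicle (median −0.56), and no gene passed the adjusted threshold.

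Many histone genes were higher in libraries with a higher 7SL share. A slope is the change in log2 level per doubling of the 7SL share, fitted with the 4 group means kept in the model, so that it reflects differences among libraries of the same group. With the edgeR test, 22 of 58 genes rose with the 7SL share and 0 fell, a share of 37.9%, against 16.7% of all genes called higher (21.0% were called lower, 37.7% in all). The median slope was 0.21 for the members and −0.05 for all genes. The 58 genes share libraries and partly reads, so they are not independent. Markers of other cells moved with the 7SL share as well: 5 of 5 erythroid, 3 of 3 endothelial and 2 of 5 cardiomyocyte markers rose, and 3 of 3 lymphoid and 1 of 3 macrophage markers fell; their part in the slopes was not tested. Called genes comprised 10 of 15 H2B, 8 of 13 H4, 3 of 5 H1, 1 of 15 H2A and 0 of 10 H3 genes.

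Among H2B genes, slopes ran from 0.12 to 0.54, all positive. Hist1h2bc, the most abundant of them, was at 10.1 to 26.4 CPM in sham-vehicle (median 13.1), 8.57 to 24.8 in CKD-vehicle (median 18.2) and 9.002 to 28.7 in CKD-Oxf (median 12.4). In sham-Oxf it was at 11.8, 9.68, 12.3, 9.57 and 8.22 CPM. Its highest values were in CKD-Oxf replicate 4, sham-vehicle replicate 5 and CKD-vehicle replicate 3, where 7SL took 20.6%, 19.9% and 20.98% of the counts. Its slope was 0.33 ± 0.06 (SE; edgeR adjusted p = 9.99e-05). The steepest slopes were those of Hist1h2bl (0.54 ± 0.11, adjusted p = 0.000461), Hist1h2bk (0.46 ± 0.08, adjusted p = 6.7e-05) and Hist1h2bp (0.39 ± 0.15, adjusted p = 0.0442). Hist1h2bk and Hist1h2bl were both at 5.88 CPM in sham-Oxf replicate 1 and at most 3.88 and 2.04 CPM elsewhere. Without that library their slopes were 0.40 and 0.40, still called, and that of Hist1h2bp, listed there at 0, was 0.51. Leaving out sham-Oxf replicate 1 brought the H2B calls to 14 of 15, when 20.1% of all genes were called higher in place of 16.7%.

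H4 slopes were also all positive, from 0.14 to 0.35. Hist1h4h had 9.39 to 19.1 CPM in sham-vehicle (median 11.6), 9.62 to 25.7 in CKD-vehicle (median 14.9), 7.05 to 19.1 in CKD-Oxf (median 10.6), and 13.8, 9.07, 15.2, 7.54 and 8.54 in sham-Oxf. Its slope was 0.31 ± 0.06 (edgeR adjusted p = 0.00033), and the slopes of Hist4h4 (0.35 ± 0.09) and Hist2h4 (0.27 ± 0.07) were called too, although little or none of their sequence is shared with other histone rows.

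The H1 genes divided. Hist1h1e (0.35 ± 0.08), Hist1h1d (0.32 ± 0.09) and Hist1h1c (0.30 ± 0.06) rose with the 7SL share. Hist1h1a and Hist1h1b, named after their values were seen, had slopes of −0.09 ± 0.16 and −0.22 ± 0.14 and were not called. Of the H2A genes, Hist2h2ac, which shares 20.0% of its windows with other rows, was the 1 called (0.33 ± 0.07, adjusted p = 0.000962), and the class median was 0.04. Hist3h2a had a slope of −0.01 ± 0.13. All 10 H3 slopes were negative, from −0.27 to −0.03, with the smallest adjusted p at 0.168, and without sham-Oxf replicate 1 their median was −0.03 in place of −0.15.

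**Figure D3:**
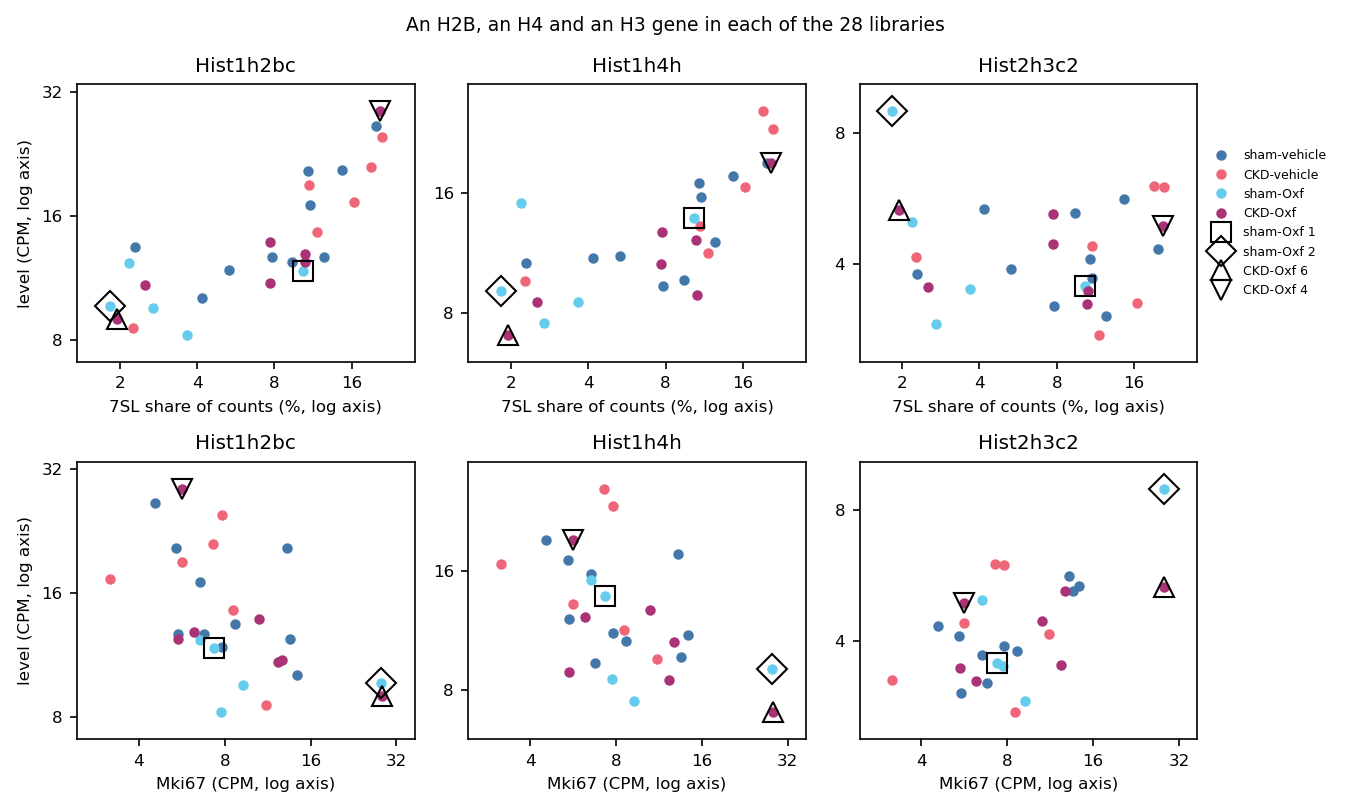
Levels in CPM (vertical axes, log scale) of Hist1h2bc, Hist1h4h and Hist2h3c2 in each library against the 7SL share of counts in percent (upper row) and Mki67 in CPM (lower row), both on log scales. Colours are groups, and open symbols mark the 4 libraries named in the key. Hist1h2bc and Hist1h4h are higher where 7SL is, and Hist2h3c2 is highest, at 8.96 CPM, in sham-Oxf replicate 2, where Mki67 was at 28.3 CPM.

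The direction of these slopes is relative to other genes and depends on the scaling. With total counts in place of TMM factors, the median slope of all genes moved from −0.05 to −0.25, the calls over all genes went from 4056 higher and 5095 lower to 751 and 13560, and the members' calls became 2 higher and 10 lower, 9 of the 10 in H3. A change of scaling moves the slopes of all genes by a similar amount. Class medians taken relative to the median of all genes could therefore hardly move, and they do not test the scaling. With TMM these relative medians were 0.35 for H1, 0.34 for H2B, 0.32 for H4, 0.09 for H2A and −0.10 for H3. With total counts they were 0.35, 0.33, 0.31, 0.09 and −0.14. Without that reference the H2A median changed sign, at −0.17 with total counts. With the share of 7SK, another RNA without a poly(A) tail, in place of 7SL, 20 members rose and 0 fell (14.4% of all genes rose). The labels do not say whether poly(A) RNA was selected or ribosomal RNA removed.

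Mki67 gave a different order of classes. Over the same libraries, 2 genes rose with Mki67 and 0 fell (3.45%, against 3.6% of all genes higher and 6.49% in either direction), so the share of calls equalled the background. Both were H3 genes. Hist2h3c2 had 3.05 to 5.64 CPM in sham-vehicle (median 4.01), 2.75 to 6.03 in CKD-vehicle (median 4.28), 3.24 to 5.33 in CKD-Oxf (median 4.45), and 3.56, 8.96, 4.98, 2.92 and 3.51 in sham-Oxf. Its slope per doubling of Mki67 was 0.34 ± 0.10 (edgeR adjusted p = 0.0353). Hist1h3c had 2.46 to 5.07 CPM in sham-vehicle (median 3.40), 1.96 to 4.99 in CKD-vehicle (median 3.89), 1.53 to 5.70 in CKD-Oxf (median 3.13), and 0, 9.79, 3.999, 1.65 and 2.58 in sham-Oxf. Its slope was 0.63 ± 0.19 (adjusted p = 0.0438). For both, the highest library was sham-Oxf replicate 2, above the range of every other group.

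All 10 H3 slopes on Mki67 were positive, from 0.32 to 0.63, each with an unadjusted p under 0.05, as were 13 of 15 H2A slopes (median 0.25). Over the whole family 22 members had such a p (37.9%, against 25.1% of all genes). The H2B and H4 medians were −0.11 and −0.11 (0.10 and 0.06 with total counts, where the median of all genes was 0.28), and Hist1h1b (0.59 ± 0.19, adjusted p = 0.0596) and Hist1h1a (0.51 ± 0.21) differed in sign from Hist1h1c (−0.30 ± 0.12) and Hist1h1e (−0.25 ± 0.15).

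These slopes rest on few libraries. Without sham-Oxf replicate 2 and CKD-Oxf replicate 6, the libraries with high Mki67 and high lymphoid markers, 0 members and 0.0% of all genes were called, and the H3 median was 0.20 in place of 0.45. At an unadjusted p under 0.05 there were 3 members by edgeR, against 10.3% of all genes. Hist2h3c2 was then at 0.25 (adjusted p = 0.509) and Hist1h3c at 0.36 (adjusted p = 0.627). The 10 H3 genes summed to 99.8 and 56.2 CPM in these 2 libraries, against 7.59 to 60.01 CPM elsewhere (median 41.5). All 3 lymphoid markers rose with Mki67 and fell with the 7SL share; their part in the histone slopes was not tested. Without sham-Oxf replicate 1, on the other hand, 11 members were called, when 5.32% of all genes were called higher, 6 of them H3 genes, 4 H2A genes and 1 H1 gene, Hist1h1b.

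The 7SL share and Mki67 were themselves related. Over the 28 libraries their log2 values had Pearson's r = −0.61 (permutation p = 0.00039, adjusted over 4 relations 0.00156) and Spearman's rho = −0.59 (p = 0.00111, adjusted 0.00444), and r = −0.45 without the 2 libraries farthest from the median 7SL share. Within CKD-Oxf r was −0.87 (exact permutation p = 0.00516, adjusted 0.0103, n = 7), within CKD-vehicle −0.53 (exact permutation p = 0.178, n = 6) and within sham-vehicle −0.39 (permutation p = 0.276, n = 10). No correlation was computed within the 5 sham-Oxf libraries. The permutation over all 28 libraries ignored the groups, which differed in mean 7SL share. Sham-Oxf replicate 2 and CKD-Oxf replicate 6, highest in Mki67, had the lowest 7SL shares (1.83% and 1.95%). When both measures entered the same fit, 26 members rose with the 7SL share and 0 fell (44.8%, against 8.96% of all genes higher, 8.08% lower and 17.0% in all), comprising 9 H2B, 9 H4, 5 H2A, 3 H1 and 0 H3 genes. Of these, 21 had also been called with 7SL alone. The joint calls on 7SL depended on the scaling: with total counts the 26 became 2, as given with the other settings below. With Mki67 in that joint fit, 0 members passed by edgeR, which called 0.00412% of all genes; DESeq2 called 2 members (0.194% of all genes) and limma voom 12 (0.816%). By edgeR, 33 had an unadjusted p under 0.05 (56.9%, against 3.49% of all genes), among them 13 of 15 H2A and 9 of 10 H3 genes. The joint slope on Mki67 of Hist2h3c2 was 0.48 ± 0.11 (adjusted p = 0.145) and that of Hist1h3c 0.63 ± 0.23 (adjusted p = 0.707). Without sham-Oxf replicate 2 and CKD-Oxf replicate 6, 4 members in place of 33 had an unadjusted p under 0.05 (1.35% of all genes), and the joint H3 median on Mki67 was 0.22 in place of 0.52.

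**Figure D4:**
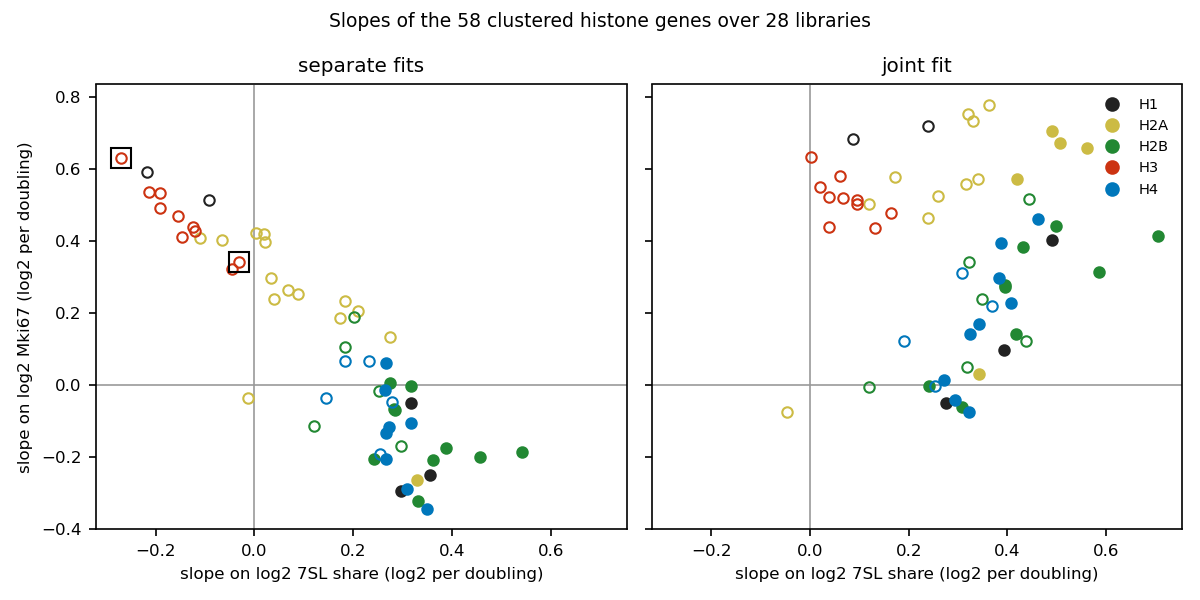
Slope of each of the 58 genes on the log2 7SL share (horizontal axis) against its slope on log2 Mki67 (vertical axis), both in log2 units per doubling, from separate fits (left) and from a joint fit of both measures (right). Colours are classes, filled circles passed the threshold for 7SL, and black squares for Mki67 (Hist1h3c and Hist2h3c2). In the separate fits H3 genes lie at the upper left, and H2B and H4 genes at the lower right.

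H2A and H2B slopes also stood apart within head-to-head pairs, whose genes share a promoter region such as the one printed for Hist1h2ah and Hist1h2bk. The 7SL slope was higher for the H2B than for the H2A gene in 10 of 12 pairs, with medians of 0.30 and 0.05. Called were 9 H2B genes and 1 H2A gene, when 16.7% of all genes were called higher. In the printed pair, Hist1h2bk had a slope of 0.46 and Hist1h2ah 0.09 (adjusted p = 0.556). In the exceptions, Hist2h2ac with Hist2h2be (0.33 and 0.12) and Hist1h2aj with Hist1h2bm (0.27 and 0.18), the H2A gene was the higher; these were named after their values were seen. Without sham-Oxf replicate 1 the latter pair had the usual order, at 0.10 for Hist1h2aj and 0.30 for Hist1h2bm. In the joint fit the H2B gene was above in 9 of 12 pairs, but the medians were 0.41 and 0.34. There 8 H2B and 4 H2A genes were called, when 8.96% of all genes were called higher. For Mki67 the order turned, with the H2B slope above that of H2A in 1 of 12 pairs and medians of −0.09 and 0.26. The differences within pairs were not tested, and every H2A gene concerned overlaps another annotated gene. Hist1h2ao and Hist1h2ap, and Hist1h2bq and Hist1h2br, had equal counts in the median library, so the pairs holding them are not independent.

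**Figure D5:**
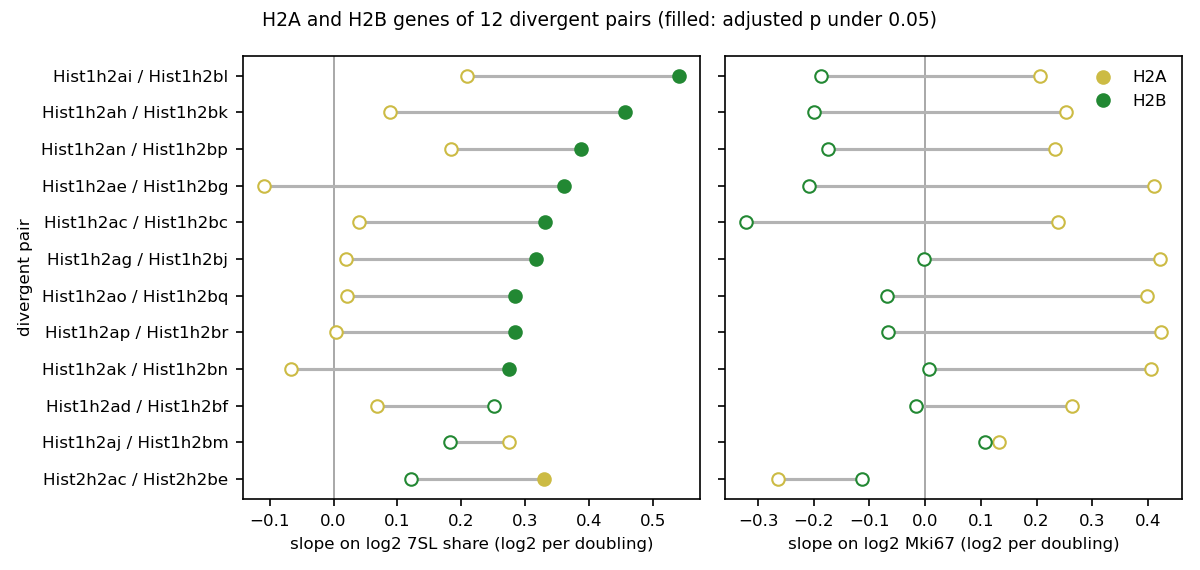
Slopes of the H2A and H2B genes in 12 head-to-head pairs (rows) on the log2 7SL share (left) and on log2 Mki67 (right), in log2 units per doubling. Filled circles passed the adjusted threshold and grey lines join a pair. On the left the H2B gene lies to the right of its partner in 10 pairs, and on the right it does so in 1.

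The genes were also divided by their annotated transcript ends. Of the 17 genes whose transcript runs 300 bases or more past the stem-loop, 7 rose with the 7SL share (median slope 0.25). The counts were 10 of 24 with a shorter end (0.22) and 5 of 17 with no annotated stem-loop (0.18). This last set does not stand for genes that lack the element. In 12 of its genes fewer than 20 bases are annotated after the coding end, so none could be read. It also holds Hist1h2bc, where no stem-loop was found in 742 annotated bases. In the joint fit the order turned, with medians of 0.25, 0.34 and 0.34 and 7, 10 and 9 genes called. For Mki67 the medians were −0.05, 0.09 and 0.19. Differences between these sets were not tested. Over all genes, 16.7% were called higher with the 7SL share alone and 8.96% in the joint fit.

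Other gene groups give a setting for these values. Over all genes, 16.7% were called higher and 21.0% lower with the 7SL share, and 3.6% higher with Mki67. The 11 replication-independent histone genes, which encode variants such as H3.3 and H2A.Z and mostly have polyadenylated messages, had 4 genes rising and 2 falling with the 7SL share (median 0.11). Of 17 genes for histone message processing and supply, including Slbp, Npat, Lsm10 and Lsm11, 2 rose and 2 fell (median −0.03), and 0 were called for Mki67. Of 9 tested RNAs without a poly(A) tail, a list that holds the 7SL copies themselves, 7 rose. Of 27 proliferation and S phase genes, 2 rose and 6 fell with the 7SL share, and 5 of 26 rose with Mki67. Between Oxf and vehicle averaged over surgery, 1 replication-independent histone gene and 3 of the RNAs without a poly(A) tail were lower. In that comparison 0 processing or proliferation genes passed, when 1.54% of all genes were called lower and 1.26% higher.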

How the data were processed

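The deposited values are raw gene counts in 1 table of whole numbers made by the authors. The submitters' processing notes name FastQC 0.11.7, STAR 2.6.1d, featureCounts 1.6.3, MultiQC 1.9 and the build mm10; the annotation, the use of strand and the treatment of reads with several matches are not given in the sources used here. A column kit gave total RNA, per the labels' protocols. Rows without a gene name and unmapped sample columns numbered 0. Replicates were numbered in the order of the records.

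All 28 libraries entered 1 fit of 4 group means (R 4.3.3, edgeR 4.0.16: TMM factors, filterByExpr by group with a minimum count of 10, robust quasi-likelihood F test), which kept 24273 genes. P-values were adjusted over these genes by the Benjamini-Hochberg method and called under 0.05. Slopes added the log2 share of Rn7s1 plus Rn7s2, log2 Mki67 CPM (prior count 2, 24272 genes), or both. Errors of slopes and fold changes are the estimate divided by the square root of F. The scripts were tested on simulated counts. Positions, exon lengths and transcripts come from GENCODE M21, where 58 of 58 members were found by identifier, and promoters from RefSeq. Stem-loops were searched after the annotated coding end.

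Named genes were, for each comparison, up to 3 rises and 3 falls past the threshold or the smallest p, the 10 members of highest mean CPM, and all Hist3 and Hist4 members. Also tried were voom with weighted samples (limma 3.58.1), the Wald test of DESeq2 1.42.0, other scalings and filters, clock, 7SL and Mki67 covariates, and leaving out each library. Added after seeing the data were the 7SK share and the fit without the 2 libraries of highest Mki67. The members and lists were chosen with earlier results of these data known. P-values reflect the spread between mice. Of the cell type markers listed, 2 are not reported here.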

Additional observations from a re-analysis of the deposited data

Results flagged for a closer look

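Of 116 sets of values (29 measures in 4 groups), 20 had a highest library whose gap to the next, divided by the range of its group, exceeded Dixon's limit at the 95% level; chance gives about 1 in 20, or 5.8. The measures overlap, since the sums hold the single genes, so the sets are not independent and 5.8 is only a rough guide. CKD-Oxf replicate 4 held 13 of the 20 gaps. Its gap was 0.711 for Hist1h1c, 0.755 for Hist1h2bc, 0.578 for Hist1h2be, 0.581 for Hist1h2bk, 0.643 for Hist1h4c, 0.757 for Hist1h4m, 0.635 for Hist1h4n, 0.685 for Hist2h2ac, 0.626 for Hist3h2a and 0.616 for Hist4h4. It was 0.62 for the summed H1 genes (144 CPM), 0.658 for the summed H2B genes (84.0 CPM) and 0.674 for all members (410 CPM). This library had 20.6% of its counts in 7SL and 27128 genes with a count.

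Sham-Oxf replicate 1 stood above its group in Hist1h2bk (gap 0.721), Hist1h2bl (0.814) and Hist2h2be (0.743), and in its 7SL share (0.784, at 10.3% of counts). Mki67 stood apart in sham-Oxf replicate 2 (0.874) and CKD-Oxf replicate 6 (0.684). Hist3h2a was highest in CKD-vehicle replicate 1 (gap 0.716, at 3.08 CPM).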

How the results depend on the processing

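A named gene's value was recomputed under other settings only for comparisons in which the gene was called or picked. Such values mostly lie away from 0 by that choice, so it says little that 0 of them changed sign. The other printed values were not followed in this way. The members' median changed sign in 30 of 127 combinations of comparison and setting. Of these, 27 were in group contrasts, 1 was for the 7SL slope and 2 were for the Mki67 slope. The share of all genes called is given in brackets. For Oxf against vehicle averaged over surgery, where 1 member was called, DESeq2 called 3 (8.26%), limma voom 16 (22%) and a filter of 10 counts in every library 2 of 38 (10.1%). In that comparison 0 were called with total counts, total counts without 7SL, no filter, the clock score, 7SL share or Mki67 as covariate, or without the 2 libraries of highest Mki67, and from 0 to 5 with 1 library left out (0 in 19 fits, 3 without CKD-vehicle replicate 5, 5 without CKD-Oxf replicate 4). In CKD-Oxf against CKD-vehicle, limma voom called 7 (15.0%), and leaving out 1 library gave 0 to 1 (1 without CKD-Oxf replicate 4); in sham-Oxf against sham-vehicle the 7SL covariate gave 1. The 22 calls on the 7SL share became 12 with total counts (2 higher, 10 lower; 59.0%) and 9 with total counts without 7SL (8 higher, 1 lower; 44.5%), and 18 to 27 with 1 library left out. The 2 calls on Mki67 became 5 with DESeq2 (12.7%), 27 with limma voom (25 higher, 2 lower; 23.9%), 4 with upper quartile factors (9.55%), 21 with total counts (52.1%), 21 with total counts without 7SL (34.5%), and 0 with no filter or without the 2 libraries of highest Mki67. Leaving out 1 library gave 0 (sham-vehicle replicate 2 or 8, sham-Oxf replicate 2, CKD-Oxf replicate 6), 1 in 7 fits, 4 in 3 fits (sham-vehicle replicate 3, CKD-Oxf replicate 2 or 4), 5 without sham-Oxf replicate 3 and 11 without sham-Oxf replicate 1. In the joint fit, the 26 calls on 7SL became 2 with total counts (2.55%) and 8 with total counts without 7SL (3.02%; 19 to 31 with 1 library left out). The 0 calls on Mki67 there became 2 with DESeq2 (0.194%), 12 with limma voom (0.816%), 4 with total counts (0.737%), 5 with total counts without 7SL (0.779%) and 1 with the 7SK share (1.44%; 0 to 5 with 1 library left out). The cause was not tested.

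At depths of 19.8 M to 65.4 M counts, the lowest member had a mean of 21.3 counts a library. Sham-Oxf replicate 1 (19.8 M) had 17 members at 0 and sham-vehicle replicate 2, at 22.3 M, had 0. No paired analysis was possible because replicate numbers follow the order of the records and pair no mice across groups.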
